A study of Eleusine coracana with 4 samples.

Results

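The genes described here are those for the small subunit of Rubisco and for Rubisco activase, followed in leaves of finger millet (Eleusine coracana), a C4 cereal, with and without salt. They were picked by identifier, as 6 loci of the MSU rice annotation given by name, and the rule used no measured value. Earlier results of these data were known when the loci were chosen. The list holds 5 small subunit loci (LOC_Os12g17600, LOC_Os12g19381, LOC_Os12g19394 and LOC_Os12g19470 on chromosome 12, and LOC_Os02g05830 on chromosome 2) and 1 activase locus (LOC_Os11g47970 on chromosome 11). Of these 6 loci, 5 have a row among the 55986 features of the tables and 4 have reads. LOC_Os12g19394 has no row under that identifier and was not analysed here. The chromosome numbers are those written in the rice identifiers and need not apply to finger millet.

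Rubisco fixes carbon dioxide in the Calvin cycle. Its holoenzyme joins large subunits, encoded in the plastid, with small subunits, encoded by a family of nuclear genes. Rubisco activase is a nuclear-encoded chaperone-like ATPase that frees the active sites of Rubisco from bound inhibitory sugar phosphates. In leaves of C4 grasses, Rubisco works mainly in the bundle sheath, where carbon dioxide is concentrated by a cycle that starts in the mesophyll. In rice, the chromosome 12 copies are the leaf blade forms of the small subunit, whereas the chromosome 2 copy is known from other organs.

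The study set 2 genotypes, Trichy 1 and CO12, each as seedlings treated with 300 mM NaCl from the 4-leaf stage, at 20 days after sowing, and as well-watered seedlings without added salt. The RNA came from the upper fully expanded young leaves, and how many plants went into a library and how long the salt acted are not stated in the labels. There was 1 library per group, so each comparison is between 2 single libraries with no replicate check. Intervals are 95% intervals that cover counting error only and leave out the spread between plants and between libraries. Reads without molecular identifiers are not independent molecules, so the intervals can be too narrow even for counting error. Total gene reads numbered 2406821 in Trichy 1 salt, 3347497 in Trichy 1 control, 1831353 in CO12 salt and 6272817 in CO12 control. Loci that ranked among the 20 most abundant of any library took nearly all of these reads, and between 3.58% and 4.14% fell on all other features together, the loci described here among them. Levels are given as RPM, the total gene reads of a locus per 1000000 total gene reads of its library. In these leaf RNA pools, fewer cells of a type and less RNA per cell cannot be told apart.

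The tables pair no locus with a gene name, so the names come from the list itself and could not be checked against the files. How finger millet reads were matched to rice loci also bears on the levels, since a locus close to the finger millet sequence collects more reads than a distant one.

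Rubisco activase had the most reads of the listed genes in all 4 libraries, and its level was lower in the salt library of both genotypes. Per kilobase of deposited length it was also the highest, with 32.0 to 76.2 RPKM. LOC_Os11g47970 had 75.6 RPM in Trichy 1 salt (182 reads, interval 65.0 to 87.4 RPM), against 156 RPM in Trichy 1 control (522 reads, 143 to 170). It had 65.5 RPM in CO12 salt (120 reads, 54.3 to 78.4), against 120 RPM in CO12 control (751 reads, 111 to 129). Both salt libraries lay below both control libraries, and no interval of a salt library overlapped that of a control library. The ratio of salt to control was 0.485 in Trichy 1 (0.407 to 0.575) and 0.547 in CO12 (0.448 to 0.664). Nearly all activase reads matched 1 place only, between 98.0% and 100% in the 4 libraries, so the choice between total and unique reads hardly touches this gene.

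In order of level, activase ran from Trichy 1 control through CO12 control and Trichy 1 salt to CO12 salt. Trichy 1 control stood above CO12 control by a ratio of 1.30 (1.16 to 1.46), and CO12 control above Trichy 1 salt by a ratio of 1.58 (1.34 to 1.87). The salt libraries, next to each other at the lower end, did not differ beyond counting error when scaled to their totals (Trichy 1 over CO12 1.15, 0.911 to 1.47). The higher activase level of Trichy 1 without salt depended on the scaling of the libraries: its log2 ratio of 0.38 was between 0.15 and 0.18 with 3 of the other scalings, and -0.06 with TMM factors over all features.

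The small subunit reads came almost wholly from LOC_Os12g17600 and LOC_Os12g19381. Summed over the copies, the small subunit had 60.7 RPM in Trichy 1 salt (146 reads, 51.2 to 71.3 RPM), against 76.2 RPM in Trichy 1 control (255 reads, 67.1 to 86.1). The sum was 52.4 RPM in CO12 salt (96 reads, 42.5 to 64.0), against 88.3 RPM in CO12 control (554 reads, 81.1 to 96.0). The salt library was lower in both genotypes. The intervals of the levels did not overlap in CO12, and they did in Trichy 1. The ratio of salt to control was 0.796 in Trichy 1 (0.645 to 0.980) and 0.594 in CO12 (0.473 to 0.738). In Trichy 1 the log2 ratio of -0.33 was -0.15 with TMM factors (-0.45 to 0.15), and that interval included equality. The log2 difference of these responses, Trichy 1 minus CO12, was 0.42 with an interval of -0.0045 to 0.85 that included equality. Other scalings moved it past equality, with 0.52 for TMM factors (0.09 to 0.95) and 0.77 for median-of-ratios factors (0.34 to 1.19), whereas unique reads gave 0.32 (-0.14 to 0.78). For activase it was -0.17 (-0.54 to 0.19), and its direction turned with the scaling, to 0.17 with median-of-ratios factors (-0.20 to 0.54). In order of level the summed small subunit ran from CO12 control through Trichy 1 control and Trichy 1 salt to CO12 salt. The ratio of Trichy 1 to CO12 was 0.863 without salt (0.741 to 1.00) and 1.16 with salt (0.888 to 1.51), and neither interval excluded equality. Without salt, every other scaling tried put the log2 ratio of the sum past equality. It ran from -0.31 with TMM factors (-0.53 to -0.09) to -0.65 with TMM factors over all features (-0.87 to -0.44). Unique reads gave -0.09 (-0.33 to 0.14), which included equality.

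**Figure D1:**
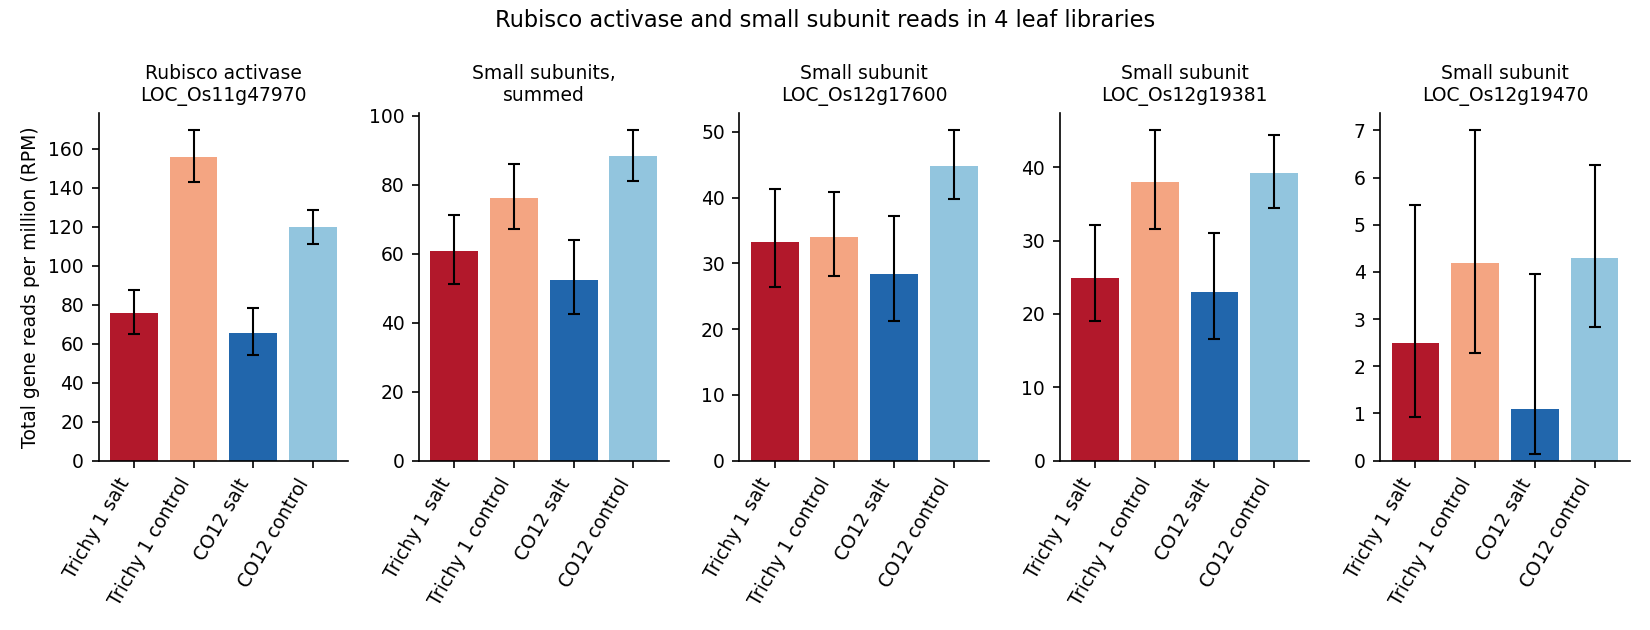
Levels of Rubisco activase, of the summed small subunits and of each small subunit copy with reads, in RPM (vertical axis, a separate scale per panel), with 1 bar per library and exact 95% counting intervals as error bars. Activase lies at 75.6 and 65.5 RPM in the salt libraries, below 156 and 120 RPM in the control libraries, while LOC_Os12g17600 is nearly level between the Trichy 1 libraries.

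LOC_Os12g17600 is a small subunit locus of 1264 bp as deposited and had the most total reads of the copies, 527 over the 4 libraries. By unique reads it had fewer than LOC_Os12g19381, 399 against 461. It had 33.2 RPM in Trichy 1 salt (80 reads), against 34.1 RPM in Trichy 1 control (114 reads). In CO12 it had 28.4 RPM in the salt library (52 reads), against 44.8 RPM in the control library (281 reads). CO12 control stood above the other 3 libraries, whose neighbours in level did not differ beyond counting error. The salt to control ratio was 0.976 in Trichy 1, with an interval of 0.724 to 1.31 on both sides of equality, and 0.634 in CO12, with an interval of 0.462 to 0.855 below it. The log2 difference of the responses was 0.62 (0.03 to 1.21), and it was 0.48 with unique reads, where the interval of -0.19 to 1.16 included 0. Between 71.9% and 85.1% of its reads were unique, the lowest share among the listed loci with reads, so part of its count depends on how reads with several matches were placed.

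LOC_Os12g19381, the second small subunit locus by total reads, was lower under salt in both genotypes. It had 24.9 RPM in Trichy 1 salt (60 reads), against 37.9 RPM in Trichy 1 control (127 reads), a ratio of 0.657 (0.475 to 0.900) whose log2 value of -0.60 was -0.42 with TMM factors (-0.89 to 0.03). In CO12 it had 22.9 RPM in the salt library (42 reads), against 39.2 RPM in the control library (246 reads), a ratio of 0.585 (0.411 to 0.814). The control libraries stood together above the salt libraries, and within each of these pairs the genotypes did not differ beyond counting error (Trichy 1 over CO12 0.967, 0.775 to 1.20, without salt, and 1.09, 0.721 to 1.65, with salt). At least 96.3% of its reads were unique in every library. The tables give this locus a length of 15886 bp, so per kilobase it was far below LOC_Os12g17600, with 1.44 to 2.47 RPKM over the libraries against 22.5 to 35.4 RPKM. That gap in RPKM rests on the deposited lengths, since the read counts of both loci were close. The tables hold no coordinates, so whether this span takes in LOC_Os12g19394, and whether reads of that locus are counted here, cannot be told apart.

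LOC_Os12g19470, the third small subunit locus with reads, was near the detection limit. It had 6 reads in Trichy 1 salt and 14 in Trichy 1 control (2.49 and 4.18 RPM), and 2 reads in CO12 salt and 27 in CO12 control (1.09 and 4.30 RPM). Both salt libraries had the lower values, but every interval of a ratio between neighbouring levels included equality. The salt to control ratio in CO12 was 0.254 (0.0292 to 1.01), which did not exclude equality at this depth. On the log2 scale, TMM factors gave -1.79 (-5.01 to 0.10) and unique reads -1.81 (-5.04 to 0.08), which included equality. Median-of-ratios factors gave -2.34 (-5.62 to -0.51), and -1.97 (-5.21 to -0.10) when restricted to features with 20 reads in every library. Without the most abundant features the value was -1.93 (-5.17 to -0.06). LOC_Os02g05830, the small subunit locus of chromosome 2, had 0 reads in every library. A count of 0 allows up to 1.25 RPM in Trichy 1 salt, 0.896 RPM in Trichy 1 control, 1.64 RPM in CO12 salt and 0.478 RPM in CO12 control (3 counts of each total), which is under the RPM of LOC_Os12g17600 and LOC_Os12g19381 in the same libraries.

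Among all features, ratios this far from equality were common. Features were compared where at least 1 of the 2 libraries had 20 reads, and the call used was a ratio of at least 2-fold. In Trichy 1, 17.2% of 727 features were at least 2-fold lower under salt, and 1 of the 3 listed genes over that minimum, activase, was among them, just past the limit with a log2 ratio of -1.04. In CO12, 19.1% of 1025 features were at least 2-fold lower, and 1 of 4 listed genes, LOC_Os12g19470, was among them through its control count. No listed gene over the minimum was at least 2-fold higher under salt, against 11.7% of features in Trichy 1 and 10.8% in CO12. The excess of lower over higher features in Trichy 1, 125 against 85, depended on the scaling and was turned round, 83 against 105, with TMM factors. With TMM factors, the log2 ratio of activase in Trichy 1 was -0.86, under 2-fold. Responses to salt were 2-fold or more apart between Trichy 1 and CO12 for 25.9% of 686 features, but for none of the 3 listed genes over the minimum in both. The interval of that difference lay wholly above 0 for 11.1% of features, LOC_Os12g17600 among them by total reads only.

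Relative to the median of all features, activase was the lower of the pair. The median log2 ratio of salt to control was -0.25 in Trichy 1 and -0.15 in CO12. Activase lay 0.79 below that median in Trichy 1 on the log2 scale, and 0.71 below it in CO12. In Trichy 1, 16.2% of the features had a lower ratio than activase, and 22.5% had one in CO12. The summed small subunit lay 0.08 below the median in Trichy 1, in the middle of the features, and 0.60 below it in CO12. Counting intervals lay wholly below equality for 33% of features in Trichy 1, where activase and LOC_Os12g19381 had such intervals, and for 21.8% of features in CO12, where activase, LOC_Os12g17600 and LOC_Os12g19381 had them.

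**Figure D2:**
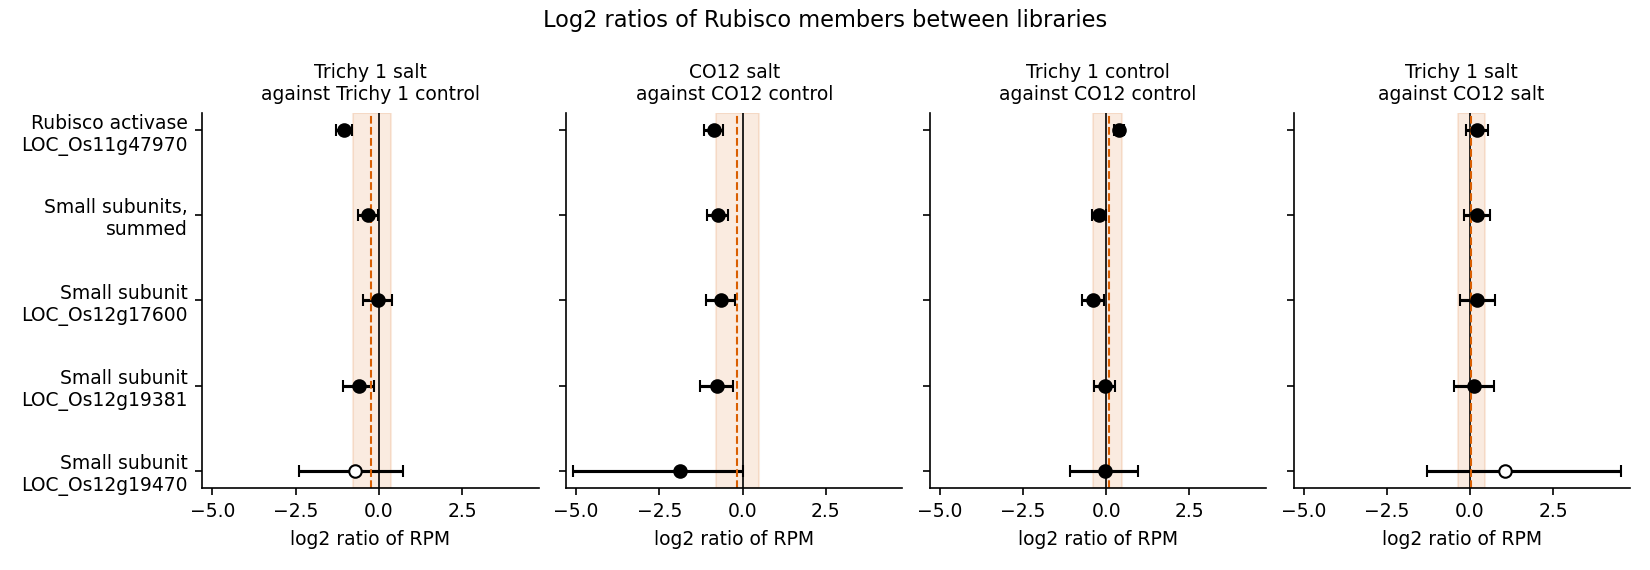
Log2 ratios of RPM (horizontal axis) of each gene and of the summed small subunits in the 4 comparisons, with exact 95% counting intervals; open points have under 20 reads in both libraries. The dashed line is the median of all features over the minimum and the shaded band holds their middle 50%. Activase lies at -1.04 and -0.87 in the salt comparisons, left of the medians of -0.25 and -0.15.

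Between the genotypes without salt, activase and LOC_Os12g17600 differed in direction when libraries were scaled to their totals. Activase was higher in Trichy 1, with the dependence on scaling given above, whereas LOC_Os12g17600 was lower, with 34.1 RPM in Trichy 1 control against 44.8 RPM in CO12 control, a ratio of 0.760 (0.606 to 0.948). On the log2 scale that is -0.39, against -0.17 with unique reads, where the interval of -0.53 to 0.19 included equality. LOC_Os12g19381 and LOC_Os12g19470 were close to equality there, with log2 ratios of -0.05 and -0.04. Counting intervals lay wholly above equality for 23.2% of features in this comparison, activase among them, and wholly below it for 13.2%, LOC_Os12g17600 among them by total reads. No listed gene over the minimum was 2-fold apart between the control libraries, where 16.7% of 1034 features were, or between the salt libraries, where 12.8% of 576 features were. Under salt, all 3 listed genes over the minimum had slightly higher RPM in Trichy 1, with log2 ratios of 0.12 to 0.23 and intervals that included equality. For activase this depended on the scaling. Its log2 ratio was 0.35 with median-of-ratios factors (0.01 to 0.70) and 0.35 with TMM factors over all features (0.007 to 0.69), just past equality.

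The balance of activase to small subunit is a ratio of reads within a library and does not depend on how libraries are scaled. It was 1.25 activase reads per small subunit read in Trichy 1 salt (0.997 to 1.56), against 2.05 in Trichy 1 control (1.76 to 2.39). In CO12 it was 1.25 in the salt library (0.948 to 1.65), against 1.36 in the control library (1.21 to 1.52). Trichy 1 control stood above the other 3 libraries, which had nearly the same balance, and its interval overlapped none of theirs. On the log2 scale the balance was lower by 0.72 under salt in Trichy 1 (-0.72, -1.10 to -0.33). In CO12 the difference of -0.12 (-0.54 to 0.30) was within counting error.

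The log2 difference between these shifts of balance, Trichy 1 minus CO12, was -0.60 (-1.16 to -0.03). With unique reads it was -0.50 and its interval, -1.09 to 0.10, included 0. Without salt, the balance was higher in Trichy 1 than in CO12 by 0.59 on the log2 scale (0.33 to 0.86), and by 0.46 with unique reads (0.18 to 0.74). Under salt the genotypes had the same balance within counting error, with a log2 difference of 0.00 (-0.50 to 0.49). Set against LOC_Os12g17600 alone, activase was lower under salt by a log2 difference of -1.01 in Trichy 1 (-1.49 to -0.53). Set against LOC_Os12g19381 alone, that difference was -0.44 (-0.94 to 0.07) and included 0.

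The mix of small subunit copies was alike in the 4 libraries within counting error. LOC_Os12g17600 held 54.8% of the small subunit reads in Trichy 1 salt (exact binomial interval 46.4% to 63.0%), against 44.7% in Trichy 1 control (38.5% to 51.0%). It held 54.2% in CO12 salt (43.7% to 64.4%), against 50.7% in CO12 control (46.5% to 55.0%). LOC_Os12g19381 held 41.1%, 49.8%, 43.8% and 44.4% in the same order of libraries, and LOC_Os12g19470 between 2.08% and 5.49%. The share of LOC_Os12g17600 was higher in the salt library of both genotypes, with overlapping intervals. The log2 shift of LOC_Os12g17600 against LOC_Os12g19381 under salt was 0.57 in Trichy 1 (-0.03 to 1.18) and 0.12 in CO12 (-0.52 to 0.75), and both intervals included 0. With unique reads alone, LOC_Os12g19381 was the larger of the copies in CO12 control, with 51.1% against 43.5% for LOC_Os12g17600. The same held in CO12 salt, with 51.2% against 46.3%. In the CO12 libraries, then, which copy leads depends on reads with several matches. In Trichy 1 control LOC_Os12g19381 led by unique reads (52.8% against 41.3%) as by total reads. LOC_Os12g17600 led by both in Trichy 1 salt, with 49.2% against 46.0% of unique reads (62 against 58 reads). These orders are of point values only. The share intervals of LOC_Os12g17600 and LOC_Os12g19381 overlapped in every library, by total and by unique reads. In CO12 salt, for example, the unique shares had intervals of 35.3% to 57.7% and 39.9% to 62.4%.

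**Figure D3:**
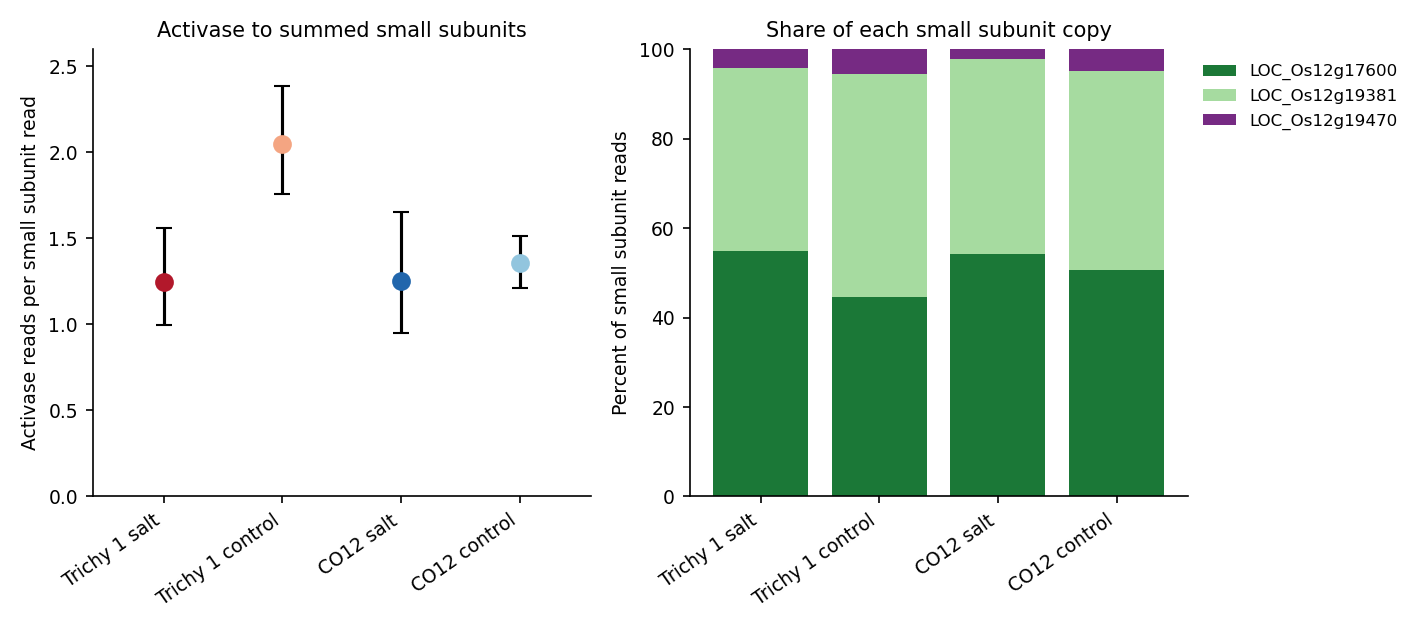
Left, activase reads per small subunit read in each library, with exact 95% binomial counting intervals; right, the percent of small subunit reads in each copy. The balance is 2.05 in Trichy 1 control and between 1.25 and 1.36 in the other libraries, and LOC_Os12g17600 and LOC_Os12g19381 hold most small subunit reads in every library.

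The other enzymes of the Calvin cycle carry out its remaining steps, among them the regeneration of the sugar phosphate that Rubisco uses. They were followed as a list of 10 rice loci recalled from general knowledge, an assignment that the tables do not carry, and are given as counts for that reason. In Trichy 1, 5 of the 9 loci over the minimum were at least 2-fold lower under salt, as were 17.2% of all features, and none was 2-fold higher, with a median log2 ratio of -1.10 against -0.25 over all features. In CO12, 2 of 10 were at least 2-fold lower, a share close to the 19.1% of all features, and none was 2-fold higher, with a median of -0.72 against -0.15. Every one of these loci over the minimum had a log2 ratio below 0 in both genotypes, except that with TMM factors 1 of the 10 stood at 0.07 in CO12. Of all features over the minimum, 60.9% in Trichy 1 and 56.4% in CO12 had a log2 ratio below 0. Those factors left 1 locus at least 2-fold lower in each genotype, and over the other scalings the number ran from 1 to 6 in Trichy 1 and from 3 to 9 in CO12. Their summed level was 419 RPM in Trichy 1 salt against 788 RPM in Trichy 1 control, and 369 RPM in CO12 salt against 591 RPM in CO12 control. The log2 ratio of activase, -1.04 in Trichy 1 and -0.87 in CO12, lay within the range of the list in both genotypes, which ran from -1.38 to -0.27 and from -1.31 to -0.01. LOC_Os12g17600, with -0.03, lay above the whole range of the list in Trichy 1, but its counting interval of -0.47 to 0.39 reached into that range.

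**Figure D4:**
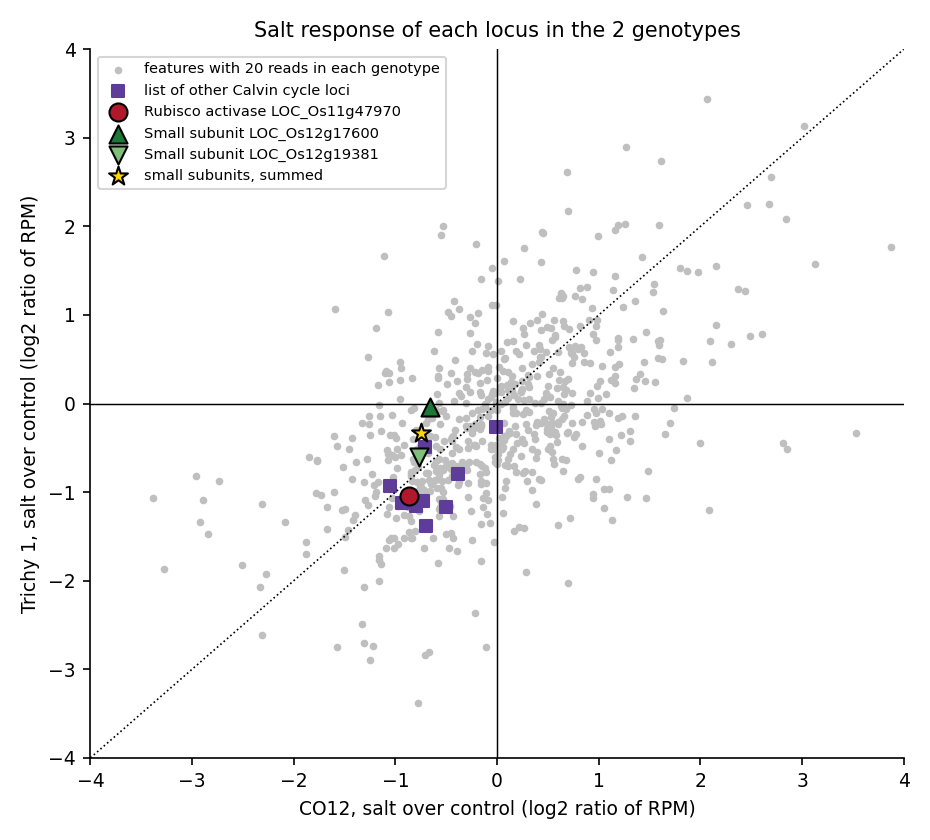
Log2 ratio of RPM, salt over control, in CO12 (horizontal axis) and Trichy 1 (vertical axis) for the 686 features with at least 20 reads in a library of each genotype (grey), with the listed genes and the other Calvin cycle loci marked; the dotted line marks equal ratios. Activase lies among the other Calvin cycle loci at -0.87 and -1.04. LOC_Os12g17600 lies above them at -0.66 and -0.03, but its Trichy 1 counting interval of -0.47 to 0.39 (not drawn) reaches into their range.

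Loci recalled in the same way as marking the leaf cell types of a C4 plant are given as sums. The 2 loci taken for the mesophyll summed to 306 RPM in Trichy 1 salt against 635 RPM in Trichy 1 control, and to 284 RPM in CO12 salt against 521 RPM in CO12 control. The 2 loci taken for the bundle sheath, where Rubisco works, summed to 27.4 RPM in Trichy 1 salt against 62.4 RPM in Trichy 1 control, and to 24.6 RPM in CO12 salt against 58.3 RPM in CO12 control. Both mesophyll loci had log2 ratios of salt to control below 0 in each genotype. Of the bundle sheath loci, 1 had most of the reads and carried the sum, with log2 ratios of -1.42 in Trichy 1 and -1.47 in CO12, while the other was under the minimum in Trichy 1 and at 0.05 in CO12. None of the 4 loci was at 0 in any library. The bundle sheath loci had between 0.0865 and 0.112 reads per mesophyll read in the 4 libraries. Small subunit reads per read of the loci taken for the bundle sheath were 2.21 in Trichy 1 salt (146 over 66 reads) against 1.22 in Trichy 1 control (255 over 209 reads). In CO12 they were 2.13 in the salt library (96 over 45 reads) against 1.51 in the control library (554 over 366 reads). No interval was computed for these ratios, and the low read counts of the salt libraries leave them imprecise. Whether these loci mark the cell types of finger millet could not be checked, so the sums are levels of the loci only. The part of these cell types in the Rubisco results was not tested.

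Among 388 features with at least 20 reads in every library, the ones with a profile most like activase over the 4 libraries were LOC_Os02g47020, LOC_Os06g04270 and LOC_Os08g27840. Likeness was the largest gap, in any library, between log2 RPM profiles centred on their own means, and it was 0.09, 0.11 and 0.12 for these. Of them, LOC_Os02g47020 and LOC_Os06g04270 are also on the recalled list of other Calvin cycle loci used above. LOC_Os01g67364, LOC_Os04g10720 and LOC_Os01g52240 were nearest to the summed small subunit, with gaps of 0.05, 0.11 and 0.11. None of the reads of LOC_Os01g52240 were unique. The profiles of activase and of the summed small subunit themselves were 0.51 apart. With 4 libraries and counts this low, near profiles are a description only.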

How the data were processed

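Per the labels' protocols, leaf RNA was DNase treated, depleted of ribosomal RNA, fragmented with RNase III and sequenced on an Ion Proton. The authors deposited whole-number counts of total and unique gene reads per feature, with no normalization. The deposited RPKM values equal total reads per kilobase of deposited gene length per 1000000 total reads, within a relative difference of 5.7e-08, and served only to compare levels between loci. The read aligner, the counting tool and the build: not given in the sources used here.

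Reads were scaled to library totals. Log2 ratios carry a prior of 0.5 count scaled to depth. Ratio and share intervals are exact (Clopper-Pearson), and those of differences span 1.96 standard errors from the counts. With 1 library per group no test was made. The functions were tested on simulated data. Alternatives used edgeR 4.0.16 (TMM, over features with 20 reads in a library) and DESeq2 1.42.0 (median of ratios) for scaling only. The median-of-ratios factors used the 4929 features with reads in every library, of which 391 had at least 20 reads in every library. The restricted factors used those 391. The rest ran in Python 3.11.15 with SciPy 1.17.1. The members and lists were chosen with earlier results of these data known. Named besides the members are the 3 features nearest in profile to activase and to the summed small subunit. No sequences are shown, as no file used here holds them.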

Additional observations from a re-analysis of the deposited data

How the results depend on the processing

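No paired analysis was possible because each group has 1 library. Under salt, activase and the summed small subunit had log2 ratios below 0 in both genotypes with every scaling tried, with unique reads, with a prior of 2.5 counts and, for the sum, without its largest copy. The interval of the sum in Trichy 1 included equality with TMM factors (-0.15), with median-of-ratios factors restricted to features with 20 reads in every library (-0.15) and without the most abundant features (-0.19). Median-of-ratios factors moved the CO12 log2 ratios to -1.39 (activase) and -1.28 (sum), and TMM factors over all features, a setting added after the data were seen, to -1.63 and -1.51. The CO12 median of all features moved with them, to -0.67 and -0.90, against -0.15 with library totals. Between the control libraries, activase was 0.18 with median-of-ratios factors, 0.15 with the restricted factors, 0.17 without the most abundant features and -0.060 with TMM over all features. The sum there was -0.45 with these restricted factors and -0.65 with TMM over all features, which also put the difference of response at 0.41 (activase) and 1.00 (sum). With library totals that difference was -0.17 for activase and 0.42 for the sum. Over the remaining scalings it ran from -0.08 to 0.17 for activase and from 0.52 to 0.77 for the sum. The median difference of all features moved in the same direction. It was -0.20 with library totals, -0.10 with TMM factors, 0.14 with median-of-ratios factors and 0.38 with TMM over all features. Why the scalings differ was not tested. LOC_Os12g17600 in Trichy 1, near equality, ran from -0.22 to 0.14 over the alternatives. Activase reads per small subunit read were 2.44 per kilobase in Trichy 1 control and 1.59 with unique reads in CO12 control.

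Features 2-fold apart numbered 210 (Trichy 1, salt against control), 307 (CO12, salt against control), 173 (Trichy 1 control against CO12 control), 74 (the salt libraries against each other) and 178 (the difference between responses). In this order and without a read minimum, they numbered 14743, 19824, 17325, 13244 and 8776, with a minimum of 100 reads 48, 70, 40, 10 and 47, and at 4-fold 38, 82, 16, 8 and 31, since these settings change what is counted. TMM over all features gave 504 for CO12 salt, and unique reads 110 for the difference. The counts of LOC_Os12g19470 and LOC_Os02g05830 are too low for small differences to be seen.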

Other observations

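Between LOC_Os12g19381 and LOC_Os12g19470 the tables list 5 loci by number, of which 4 had at most 2 reads in any library. The exception, LOC_Os12g19430 (414 bp), singled out after its values were seen, had 28 reads in Trichy 1 salt and 61 in Trichy 1 control, and 27 in CO12 salt and 42 in CO12 control. Scaled to the library totals it had 11.6 RPM in Trichy 1 salt against 18.2 RPM in Trichy 1 control, and 14.7 RPM in CO12 salt against 6.70 RPM in CO12 control. None of its reads were unique in any library, whereas the Rubisco loci on either side of it had mostly unique reads.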
